A study of Mus musculus with 12 samples.

Results

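The ITAM costimulation genes of the osteoclast lineage were followed over 6 conditions of mouse bone marrow macrophages. They were the 9 genes Oscar, Trem2, Siglec15, Tyrobp, Fcer1g, Syk, Btk, Tec and Plcg2, taken by symbol from the 24421 genes listed in every file, and all 9 were found. Bone marrow of C57BL/6 mice was grown into macrophages over 3 days in M-CSF, and RNA was sequenced either without RANKL (basal) or after 5 days of RANKL, the cytokine that drives osteoclast formation. WT cells carried Mir182+/+ LysMcre(+), and Mir182ΔM/ΔM cells carried Mir182flox/flox LysMcre(+), each with and without RANKL. Control cells carried LysMcre(+) and Mir182mTg cells carried LSL-Mir182 LysMcre(+), both without RANKL. All 6 groups therefore carried LysMcre, which expresses Cre from the lysozyme M promoter in myeloid cells, so that the allele was changed in myeloid cells and not in other cells of the culture. Each condition had 2 libraries, which the study described as biological replicates.

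Osteoclast precursors need a costimulatory signal beside RANKL. Receptors with short tails, such as OSCAR, TREM2 and Siglec-15, pair with the adaptors DAP12 (encoded by Tyrobp) and the Fc receptor γ chain (encoded by Fcer1g), whose cytoplasmic tails hold immunoreceptor tyrosine-based activation motifs (ITAMs). Phosphorylated ITAMs recruit the kinase Syk, which acts with the Tec family kinases Btk and Tec on phospholipase Cγ2 (Plcg2) to release calcium, and calcium drives the osteoclast transcription factor NFATc1.

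The sequences that bear on the design are the deleted or overexpressed microRNA and its matches among the 9 genes. Mature miR-182-5p lies at chr6:30165962-30165986 (minus strand, GRCm38.p6, RefSeq) and is shown with bases 2 to 8, the seed, in capitals.
mmu-miR-182-5p: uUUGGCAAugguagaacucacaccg
Annotated 3′ UTRs were found for 8 of the 9 genes (GENCODE vM21). The letters that pair with the seed, TTGCCAA, or with its first 6 bases followed by A, TGCCAAA, occurred in the UTR of 1 of the 9 genes, Syk, against 20.9% of the 11387 tested genes with an annotated 3′ UTR. The single match, in the 3′ UTR of Syk at chr13:52646486-52646492 (plus strand, GRCm38), is in capitals.
Syk 3′ UTR site: ccactaaaaaaTTGCCAAccagcaacttaa

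Oscar and Trem2 were the receptor genes that moved in opposite directions with RANKL, and their promoters are shown from 250 bases before to 50 bases after the start, read on the strand of the gene (RefSeq, GRCm38.p6), with the matches found in capitals.
Oscar promoter (chr7:3616108-3616407, minus strand): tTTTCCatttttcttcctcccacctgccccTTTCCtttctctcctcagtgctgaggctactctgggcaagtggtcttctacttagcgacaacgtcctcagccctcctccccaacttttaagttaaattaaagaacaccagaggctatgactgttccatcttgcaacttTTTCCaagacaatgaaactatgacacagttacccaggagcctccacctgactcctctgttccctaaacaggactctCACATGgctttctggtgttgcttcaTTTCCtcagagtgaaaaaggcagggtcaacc
Trem2 promoter (chr17:48346151-48346450, plus strand): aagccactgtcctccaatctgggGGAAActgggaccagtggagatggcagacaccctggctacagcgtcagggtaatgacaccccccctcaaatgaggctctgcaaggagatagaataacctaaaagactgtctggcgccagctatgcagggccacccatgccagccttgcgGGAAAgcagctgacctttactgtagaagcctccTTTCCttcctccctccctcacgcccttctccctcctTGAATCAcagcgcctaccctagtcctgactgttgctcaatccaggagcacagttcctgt
The letters searched on both strands were GGAAA, the core bound by NFAT factors, GGAAGT, an ETS core, TGANTCA, the AP-1 site, and the E-boxes CACGTG and CACATG. The Oscar promoter held 4 matches to GGAAA and 1 to CACATG. The Trem2 promoter held 3 matches to GGAAA and 1 to TGANTCA. Among 32851 promoters of the same length, GGAAA occurred in 61.3%, CACATG in 14.2%, TGANTCA in 7.81%, GGAAGT in 23.8% and CACGTG in 7.15%. Promoter sequences matched 7 of the 9 genes, and GGAAGT and CACGTG had no match in these 2 windows.

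The 12 libraries held 24951280 to 33050619 reads on genes. Values are counts scaled to 1000000 reads on genes (CPM), and 3 reads, the limit that a count of 0 allows, equalled 0.0908 to 0.120 CPM. Replicate 1 is labelled polyA RNA and replicate 2 total RNA, and the ribosomal precursor Rn45s ranged from 742 to 1176 CPM in replicate 1 and from 9778 to 21273 CPM in replicate 2. The Mir182 precursor row was at 2.39 and 4.40 CPM in the Mir182mTg libraries, at 1 read in 1 Mir182ΔM/ΔM library and at 0 in the other 9, so it did not check the deletion. All 8 osteoclast markers were higher with RANKL in both genotypes, where 40.6% of all genes tested were in WT and 30.4% in Mir182ΔM/ΔM. Calcr, Dcstamp and Ocstamp passed the filter on low values only through libraries with RANKL, so their rise had to appear. The 8 markers summed to 49.3 to 68.4 CPM in the basal WT and Mir182ΔM/ΔM libraries, 10081 to 10405 CPM in WT with RANKL and 3080 to 3090 CPM in Mir182ΔM/ΔM with RANKL. Of 7 macrophage markers, 7 were lower with RANKL in WT and 5 in Mir182ΔM/ΔM, where 22% and 26.4% of all genes tested were. They summed to 12079 to 12542 CPM in WT basal, 6077 to 6166 CPM in WT with RANKL, 10891 to 11089 CPM in Mir182ΔM/ΔM basal, 6199 to 6308 CPM in Mir182ΔM/ΔM with RANKL and 6585 to 6634 CPM in Control. The 3 megakaryocyte markers tested were lower with RANKL in both genotypes (all genes 22% in WT and 26.4% in Mir182ΔM/ΔM). Itga2b passed the filter on low values only through WT basal, so its fall in WT had to appear. Sums over the list of 4 were 210 to 243 CPM in WT basal, 34.8 to 39.6 CPM in WT with RANKL, 186 to 204 CPM in Mir182ΔM/ΔM basal and 40.4 to 44.1 CPM in Mir182ΔM/ΔM with RANKL. Pf4 alone made up nearly all of these sums, at 207 and 240 CPM in WT basal. There Itga2b was at 1.13 and 1.40 CPM, Ppbp at 1.83 and 1.84 CPM and Gp9 at 0.0917 and 0.200 CPM. The part of these markers in the results was not tested. Markers of mast cells and basophils, natural killer cells and erythroid cells summed to under 1 CPM in every library. Those of osteoblasts and stroma reached 30.7 CPM, of B cells 3.67 CPM and of dendritic cells 3.53 CPM, each in WT with RANKL. T cell markers reached 16.6 CPM in Mir182ΔM/ΔM with RANKL, where Cd4 alone was at 16.5 CPM, against 0.0958 to 0.189 CPM in Control. The part of these 4 lists in the results was not tested either. In bulk RNA, fewer cells of a type and less RNA per cell cannot be told apart.

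The libraries labelled WT with RANKL stood apart from the WT basal libraries in Lyz2 and Ifi202b, as in Apoe, given with the ligands. Lyz2, the lysozyme M gene that carries the Cre insertion in LysMcre mice, was at 44.0 and 39.8 CPM in WT basal, 4117 and 4288 CPM in WT with RANKL, 34.6 and 31.2 CPM in Mir182ΔM/ΔM basal and 24.0 and 22.5 CPM in Mir182ΔM/ΔM with RANKL. It was at 5783 and 6615 CPM in Control and at 6338 and 7062 CPM in Mir182mTg. Ifi202b, an interferon-inducible gene, was at 112 and 93.4 CPM in WT basal but 1.12 and 0.972 CPM in WT with RANKL, 101 and 82.1 CPM in Mir182ΔM/ΔM basal and 152 and 143 CPM in Mir182ΔM/ΔM with RANKL. It was at 0 in both Control libraries. In both genes the WT libraries with RANKL therefore lay nearer to Control than to WT basal, so the RANKL responses in WT were also computed with the Control libraries as the unstimulated group. On that basis the log2 difference was -1.54 for Trem2 (adjusted p = 0.000556, limma), -0.87 for Fcer1g (0.00197), 0.06 for Tyrobp (0.77) and 0.31 for Btk (0.0172). The values for Syk, Tec and Plcg2 stand beside their main ones. For Oscar it was 5.17 and for Siglec15 2.62. These 2 genes passed the filter on low values only through the libraries with RANKL, so their rise had to appear and is given as a description. The part of this difference in the results was not tested. Fcer1g lies on the same chromosome as Ifi202b, 2728203 bases away.

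**Figure D1:**
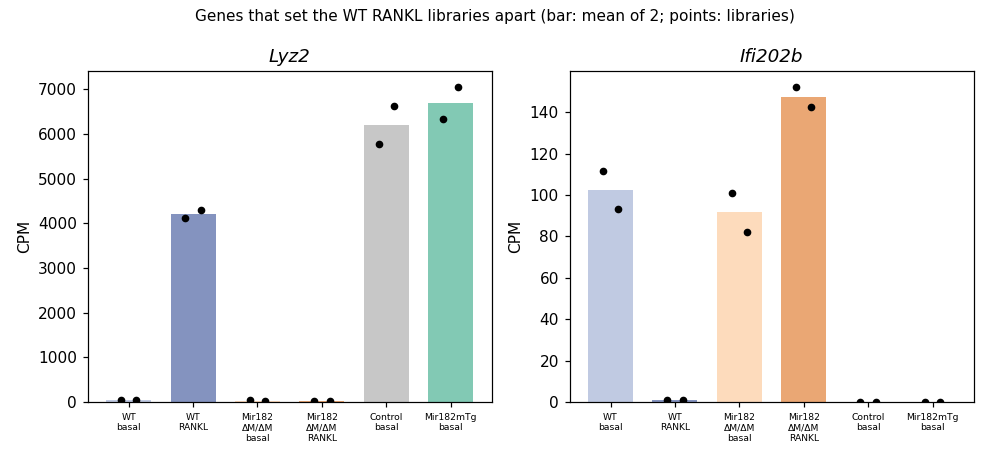
CPM of Lyz2 and Ifi202b in the 6 conditions (bars, means of 2 libraries; points, libraries; linear axes from 0). The WT libraries with RANKL, at 4117 and 4288 CPM of Lyz2 and 1.12 and 0.972 CPM of Ifi202b, lie apart from the WT basal libraries.

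The receptor genes diverged with RANKL. Oscar, which encodes the collagen-binding partner of the Fc receptor γ chain, was at 0.0611 and 0.0802 CPM in WT basal and 36.4 and 34.5 CPM in WT with RANKL. It was at 0.0740 and 0.0746 CPM in Mir182ΔM/ΔM basal and 18.5 and 16.3 CPM in Mir182ΔM/ΔM with RANKL. Every library with RANKL lay above every basal library, and both Mir182ΔM/ΔM libraries with RANKL lay below both WT libraries with RANKL. The basal WT libraries held 4 Oscar reads in all against 1871 with RANKL, a 510-fold ratio with a 95% Clopper-Pearson interval of 199 to 1875 that covers counting error only. In Mir182ΔM/ΔM 4 reads became 978, a 236-fold ratio with an interval of 91.7 to 866. After RANKL the Oscar level was 2.04-fold lower in Mir182ΔM/ΔM than in WT (log2 difference -0.99 ± 0.10 SE, adjusted p = 0.000233, limma).

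Siglec15, which encodes a sialic acid-binding receptor that pairs with DAP12 in osteoclasts, followed the course of Oscar at a lower level. It was at 6.27 and 4.39 CPM in WT with RANKL and at 2.20 and 2.32 CPM in Mir182ΔM/ΔM with RANKL, and no basal WT or Mir182ΔM/ΔM library held more than 1 read. The 2 groups with RANKL did not overlap. The level was 2.36-fold lower in Mir182ΔM/ΔM than in WT after RANKL (log2 difference -0.94 ± 0.15 SE, adjusted p = 0.00187, limma). Oscar and Siglec15 passed the filter on low values only through the groups with RANKL, so their difference from basal had to appear and is given as a description.

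Trem2, which encodes a lipid and apolipoprotein receptor that signals through DAP12, took the opposite course. It was at 548 and 704 CPM in WT basal and 168 and 203 CPM in WT with RANKL. It was at 499 and 593 CPM in Mir182ΔM/ΔM basal and 325 and 369 CPM in Mir182ΔM/ΔM with RANKL. The basal libraries of both genotypes overlapped, whereas the libraries with RANKL did not overlap with them or with each other between genotypes. Trem2 fell 3.37-fold in WT (log2 difference -1.74 ± 0.15 SE, adjusted p = 6.09e-05, limma) and 1.57-fold in Mir182ΔM/ΔM (-0.65 ± 0.15 SE, adjusted p = 0.00915). The fall in Mir182ΔM/ΔM lost its call without Mir182ΔM/ΔM basal replicate 2 (adjusted p = 0.0568) or Mir182ΔM/ΔM RANKL replicate 1 (adjusted p = 0.0578). After RANKL Trem2 was 1.87-fold higher in Mir182ΔM/ΔM than in WT (0.90 ± 0.15 SE, adjusted p = 0.00292).

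**Figure D2:**
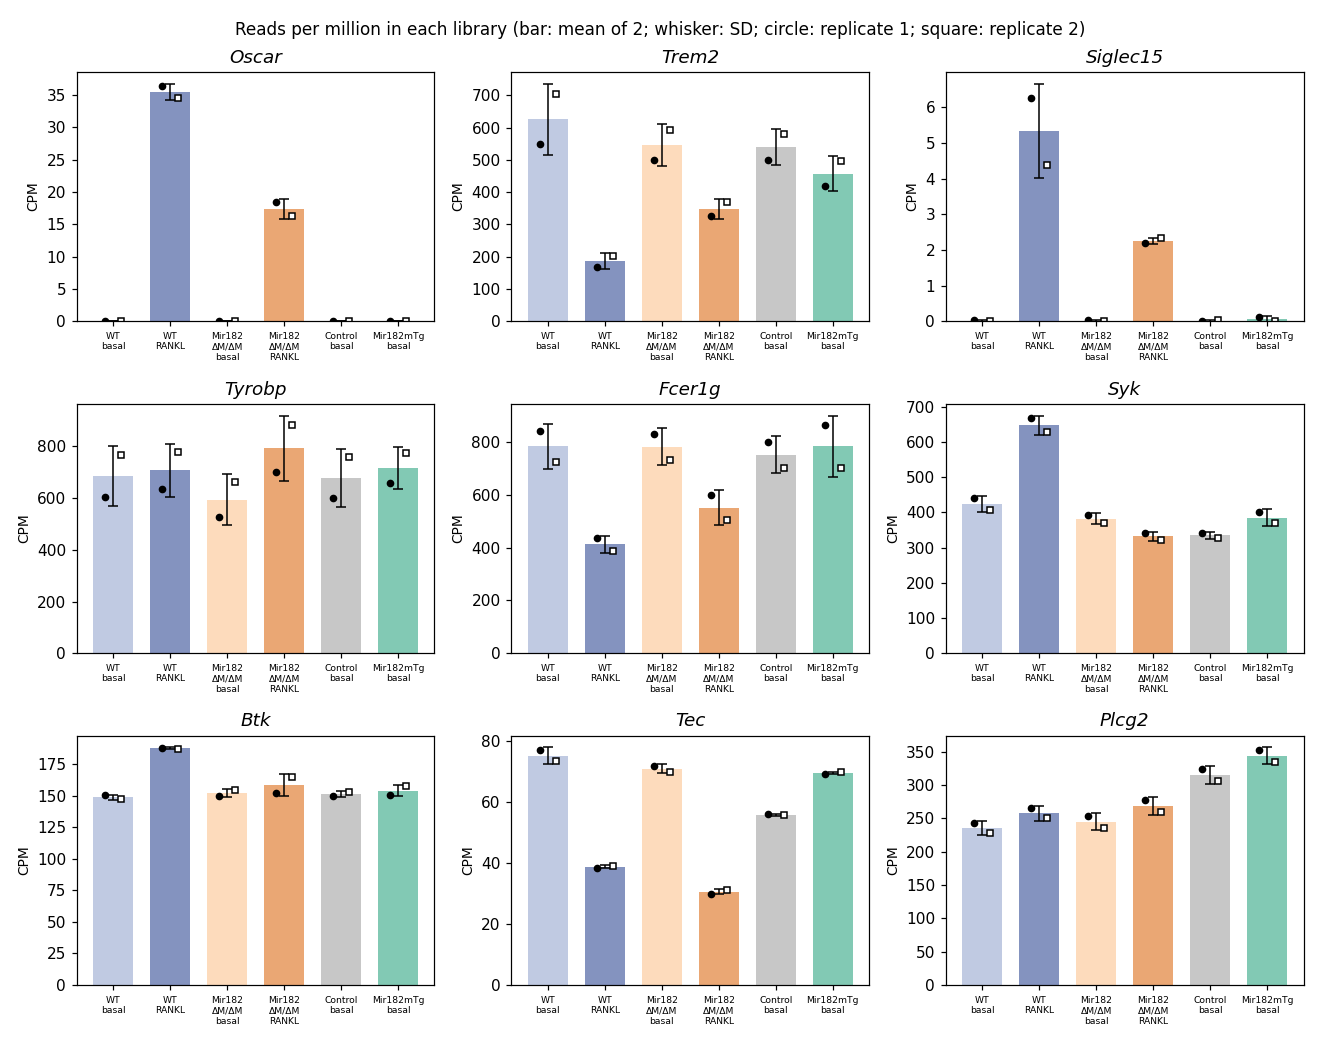
CPM of the 9 genes in the 6 conditions (bars, means of 2 libraries; whiskers, SD; circles, replicate 1; squares, replicate 2; linear axes from 0). Oscar and Siglec15 are near 0 in all 8 basal libraries, and the WT libraries with RANKL are the lowest of all for Trem2 and Fcer1g and the highest for Syk and Btk.

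The adaptor genes separated from each other. Fcer1g was at 844 and 724 CPM in WT basal, 435 and 389 CPM in WT with RANKL, 832 and 732 CPM in Mir182ΔM/ΔM basal and 599 and 504 CPM in Mir182ΔM/ΔM with RANKL. It fell in WT (log2 difference -0.92 ± 0.12 SE, adjusted p = 0.000455, limma) and in Mir182ΔM/ΔM (-0.50 ± 0.12 SE, adjusted p = 0.00975). After RANKL it was 1.34-fold higher in Mir182ΔM/ΔM than in WT (0.42 ± 0.12 SE, adjusted p = 0.0277). The libraries with RANKL did not overlap between genotypes, but this last call was lost without WT RANKL replicate 2 (adjusted p = 0.136) or Mir182ΔM/ΔM RANKL replicate 1 (adjusted p = 0.148). The fall in Mir182ΔM/ΔM was lost without Mir182ΔM/ΔM basal replicate 1 (adjusted p = 0.0616) or Mir182ΔM/ΔM RANKL replicate 2 (adjusted p = 0.0619).

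Tyrobp was at 603 and 767 CPM in WT basal, 635 and 780 CPM in WT with RANKL, 525 and 664 CPM in Mir182ΔM/ΔM basal and 703 and 882 CPM in Mir182ΔM/ΔM with RANKL. In every condition the replicate 2 library was above the replicate 1 library, and the WT groups overlapped. The difference with RANKL was 0.05 in WT (log2 scale, 95% interval -0.38 to 0.48) and 0.41 in Mir182ΔM/ΔM (-0.01 to 0.84, adjusted p = 0.0886, limma), neither of which passed the test. With the replicate number as a block, the difference in Mir182ΔM/ΔM passed (adjusted p = 9.16e-12), as did the higher level in Mir182ΔM/ΔM than in WT after RANKL (0.16, adjusted p = 1.94e-05, against 0.501 without the block). The direction in WT depended on the scaling, since it was -0.16 after division by TMM factors (adjusted p = 0.485) and -0.16 in edgeR with the block, where it passed (adjusted p = 3.83e-06). Per length, the Fcer1g to Tyrobp ratio was 1.20 and 0.812 in WT basal and 0.590 and 0.429 in WT with RANKL, and 1.36 and 0.949 became 0.733 and 0.492 in Mir182ΔM/ΔM. The Trem2 to Tyrobp ratio was 0.449 and 0.453 in WT basal, 0.131 and 0.129 in WT with RANKL, 0.470 and 0.442 in Mir182ΔM/ΔM basal and 0.228 and 0.207 in Mir182ΔM/ΔM with RANKL. Both ratios were lower with RANKL within each replicate number and genotype.

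Syk, the kinase that binds phosphorylated ITAMs, was the member called in opposite directions with RANKL in the 2 genotypes in the main fit. In edgeR with the replicate block, Tyrobp (-0.16 in WT, 0.37 in Mir182ΔM/ΔM) and Plcg2 (-0.0783 and 0.09) were called in opposite directions too. Syk was at 441 and 408 CPM in WT basal, 667 and 628 CPM in WT with RANKL, 394 and 371 CPM in Mir182ΔM/ΔM basal and 341 and 322 CPM in Mir182ΔM/ΔM with RANKL. The WT libraries with RANKL were above every other library of the series. Syk rose 1.53-fold in WT (log2 difference 0.61 ± 0.07 SE, adjusted p = 0.000251, limma). In Mir182ΔM/ΔM the difference was -0.20 ± 0.07 SE (adjusted p = 0.0424), a call that was lost without either Mir182ΔM/ΔM library of either condition (adjusted p = 0.0650 to 0.203), without either WT library with RANKL (0.0574 and 0.0576) and with no filter on low values (0.0614). After RANKL Syk was 1.95-fold lower in Mir182ΔM/ΔM than in WT (-0.96 ± 0.07 SE, adjusted p = 5.58e-05). With Control in place of WT basal, the rise in WT was 0.95 (adjusted p = 0.000484), since Control held 341 and 328 CPM.

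The Tec family kinases differed from each other. Btk was at 150 and 147 CPM in WT basal, 188 and 187 CPM in WT with RANKL, 150 and 154 CPM in Mir182ΔM/ΔM basal and 152 and 165 CPM in Mir182ΔM/ΔM with RANKL. It was higher with RANKL in WT (0.33 ± 0.06 SE, adjusted p = 0.00267, limma) and, after RANKL, lower in Mir182ΔM/ΔM than in WT (-0.24 ± 0.06 SE, adjusted p = 0.0177). Both calls were lost after division by TMM factors (adjusted p = 0.117 and 0.269), and the second also without either WT library with RANKL (adjusted p = 0.0794 and 0.0761) or without Mir182ΔM/ΔM RANKL replicate 1 (0.101). Tec was at 77.1 and 73.4 CPM in WT basal, 38.4 and 39.1 CPM in WT with RANKL, 72.0 and 69.9 CPM in Mir182ΔM/ΔM basal and 30.0 and 31.2 CPM in Mir182ΔM/ΔM with RANKL. It fell 1.94-fold in WT (-0.94 ± 0.07 SE, adjusted p = 1.99e-05) and 2.32-fold in Mir182ΔM/ΔM (-1.19 ± 0.07 SE, adjusted p = 8.05e-06). Against Control, at 56.0 and 55.6 CPM, the fall in WT was -0.52 (adjusted p = 0.00479). The lower Tec level in Mir182ΔM/ΔM than in WT after RANKL (-0.33 ± 0.07 SE, adjusted p = 0.00609) was lost after division by TMM factors (-0.19, adjusted p = 0.0547).

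Plcg2, the phospholipase at the end of this chain, lay at 243 and 227 CPM in WT basal, 266 and 250 CPM in WT with RANKL, 254 and 235 CPM in Mir182ΔM/ΔM basal and 278 and 259 CPM in Mir182ΔM/ΔM with RANKL. No comparison of these groups passed in limma without the block: the difference with RANKL was 0.13 in WT (95% interval -0.04 to 0.30) and 0.13 in Mir182ΔM/ΔM (-0.04 to 0.31), and 0.06 between genotypes after RANKL (-0.11 to 0.23). With the replicate block both RANKL differences passed (adjusted p = 0.000357 and 0.000352, limma). In edgeR with the block the difference with RANKL was -0.0783 in WT (adjusted p = 0.012) and 0.09 in Mir182ΔM/ΔM (0.0036), and that between genotypes after RANKL was 0.21 (1.97e-07). The direction in WT rested on the basal group and the scaling, because it was -0.29 against Control, at 324 and 306 CPM (adjusted p = 0.0302), and -0.08 after division by TMM factors (adjusted p = 0.372).

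In counts, RANKL in WT called 4 of the 9 genes higher and 3 lower, where 40.6% of the 11691 genes tested were called higher and 22% lower. In Mir182ΔM/ΔM 2 were called higher and 4 lower, against 30.4% and 26.4% of all genes. Oscar and Siglec15, which had to differ, are 2 of the higher calls in each genotype, so nothing is read from those counts. Between genotypes after RANKL 2 were higher in Mir182ΔM/ΔM and 5 lower, against 14.3% and 30.9% of all genes. The median log2 difference over all genes was 0.19 for RANKL in WT, 0.05 for RANKL in Mir182ΔM/ΔM and -0.14 between genotypes after RANKL, and division by TMM factors brought these to -0.01, 0.01 and -0.01. With that scaling the calls over all genes changed from 4741 higher and 2571 lower to 3349 and 3571 for RANKL in WT, from 1668 and 3607 to 2405 and 2391 between genotypes after RANKL, and from 870 and 2005 to 1223 and 1287 for the difference of responses. Relative to that shift, the genotype difference after RANKL was -0.84 for Oscar, -0.82 for Siglec15, -0.81 for Syk, 1.05 for Trem2 and 0.57 for Fcer1g, and all 5 passed the test. The difference between genotypes after RANKL had the same sign within both replicate numbers in 9 of 9 genes. Each RANKL response did so too, but for Oscar and Siglec15 that sign followed from the filter on low values. Without RANKL the sign was the same in 5 of 9 genes between Mir182ΔM/ΔM and WT and in 7 of 9 between Mir182mTg and Control. No share over all genes was computed, so nothing is read from these counts.

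**Figure D3:**
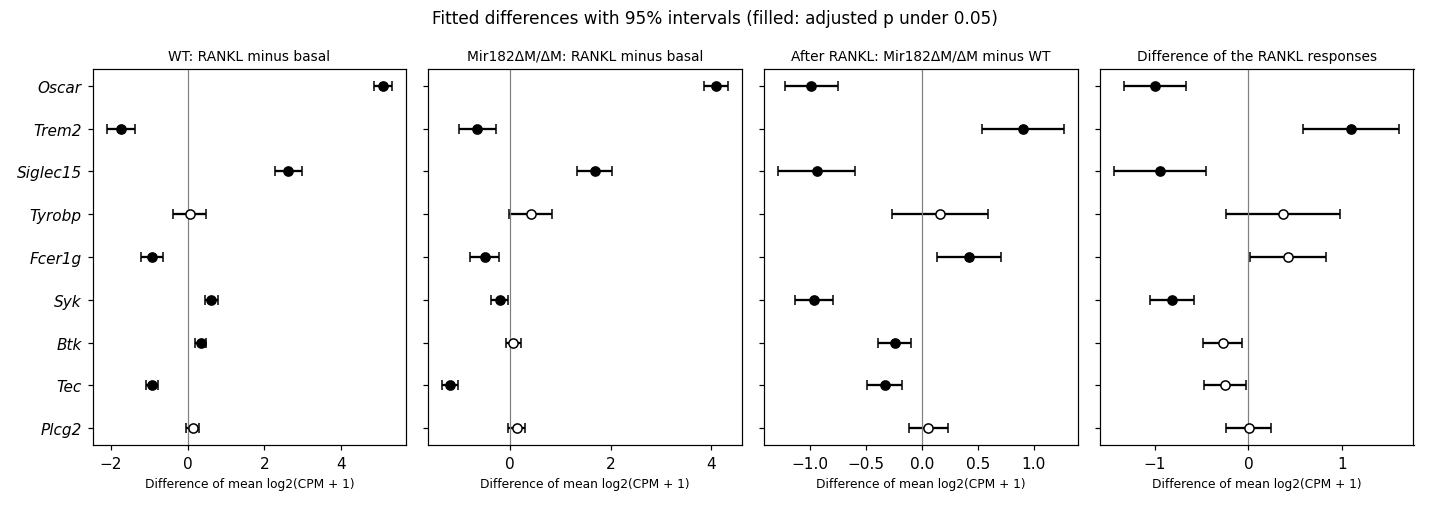
Fitted differences of mean log2(CPM + 1) for the 9 genes in 4 comparisons, with 95% intervals (points, limma estimates from 2 libraries a group; filled, adjusted p under 0.05; the horizontal axes differ between panels). Oscar, Siglec15 and Syk lie to the left of 0 and Trem2 to the right in the difference of the RANKL responses.

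The response to RANKL itself differed between genotypes in 4 of the 9 genes, where 24.6% of all genes tested did, 7.44% with a higher and 17.1% with a lower value in Mir182ΔM/ΔM. Oscar and Siglec15, near 0 without RANKL, are 2 of these 4. Their difference of responses nearly repeats that between genotypes after RANKL (-0.99 and -0.94), so nothing is read from this count. The RANKL response in Mir182ΔM/ΔM minus that in WT was -0.99 for Oscar (adjusted p = 0.0024, limma), -0.95 for Siglec15 (0.0155), -0.81 for Syk (0.00136) and 1.09 for Trem2 (0.0107). For Oscar and Siglec15 this difference lies on the log2(CPM + 1) scale and rests on basal groups with 4 reads or fewer: on the recovered reads, with edgeR, it was -0.95 for Oscar (adjusted p = 0.595) and -1.15 for Siglec15 (0.776), and neither passed. For Siglec15 it was also lost with a pseudocount of 0.1 (adjusted p = 0.0763), without Mir182ΔM/ΔM basal replicate 1 (0.0529) and without Mir182ΔM/ΔM RANKL replicate 1 (0.0547). With Control in place of WT basal, the difference was -1.16 for Syk and 0.89 for Trem2, both past the test in limma. Tec (-0.67, adjusted p = 0.000992) and Plcg2 (0.42, adjusted p = 0.0122) joined them. It was -1.07 for Oscar and -0.94 for Siglec15, but this exchange is no check for these 2 genes. The Control libraries held at most 1 read of either, as near to 0 as WT basal. With the replicate block in limma, 8 of the 9 genes passed, Plcg2 being the exception (adjusted p = 0.982). In edgeR with the block 5 passed, among them Plcg2 (0.17, adjusted p = 0.000676), whereas Oscar (0.463) and Siglec15 (0.696) did not.

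Without RANKL no member passed the test between Mir182ΔM/ΔM and WT, where 3.81% of all genes did. The differences ran from -0.20 for Tyrobp (95% interval -0.63 to 0.22) to 0.06 for Plcg2 (-0.12 to 0.23). Syk (-0.15, adjusted p = 0.372, limma) and Tec (-0.08, adjusted p = 0.656) were lower in both Mir182ΔM/ΔM libraries than in both WT libraries. No share of such genes over all genes was computed, so nothing is read from this. With the replicate block, Trem2 (-0.19, adjusted p = 0.0002), Tyrobp (-0.20, adjusted p = 5.59e-06) and Syk (-0.15, adjusted p = 0.000265) passed.

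Mir182mTg cells were compared with Control cells without RANKL to ask what added miR-182 does in precursors. Of the 9 genes, 7 were tested and 0 passed in edgeR's quasi-likelihood test, where 0.257% of 12081 genes did and 863 genes had an unadjusted p under 0.05. DESeq2 and limma also called 0 members. Tec was at 69.3 and 69.8 CPM in Mir182mTg and 56.0 and 55.6 CPM in Control (log2 difference 0.31 ± 0.07 SE, adjusted p = 0.361). Trem2 was at 419 and 496 CPM against 501 and 580 CPM (-0.25 ± 0.12 SE, adjusted p = 0.832), and Syk at 402 and 369 CPM against 341 and 328 CPM (0.19 ± 0.08 SE, adjusted p = 0.692). The groups did not overlap for Tec, Trem2, Syk and Plcg2, nor for Oscar, which was near 0. No share of such genes over all genes was computed, so nothing is read from this. With the replicate block Tec (adjusted p = 7.34e-05), Trem2 (9.27e-06) and Syk (0.000292) passed, as did Plcg2 (0.12, adjusted p = 0.0107), at 352 and 334 CPM against 324 and 306 CPM. Oscar and Siglec15 held at most 4 reads in any of these libraries, and no fold is given.

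Levels between genes were compared per kilobase (RPKM). In WT basal, Tyrobp (1210 ± 204 RPKM, SD, n = 2) and Fcer1g (1191 ± 128) were highest and overlapped, followed by Trem2 (546 ± 95.8), Syk (80.5 ± 4.37), Btk (58.6 ± 0.878), Plcg2 (54.7 ± 2.49) and Tec (28.3 ± 0.997). Oscar and Siglec15 were under 0.1 RPKM. In WT with RANKL, Tyrobp (1250 ± 181) and Fcer1g (626 ± 49.9) no longer overlapped, Syk (123 ± 5.17) came near Trem2 (162 ± 21.7) without overlap, and Oscar (19.2 ± 0.692) lay above Tec (14.6 ± 0.194). In Mir182ΔM/ΔM with RANKL, Trem2 stood at 303 ± 27.3 RPKM, Syk (62.9 ± 2.60), Btk (62.6 ± 3.50) and Plcg2 (62.4 ± 3.03) could not be ordered, and Oscar (9.43 ± 0.856) lay below Tec (11.5 ± 0.323). Oscar stood at 13.4% and 10.6% of the Trem2 level in the WT libraries with RANKL and at 3.54% and 2.74% in the Mir182ΔM/ΔM libraries with RANKL.

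**Figure D4:**
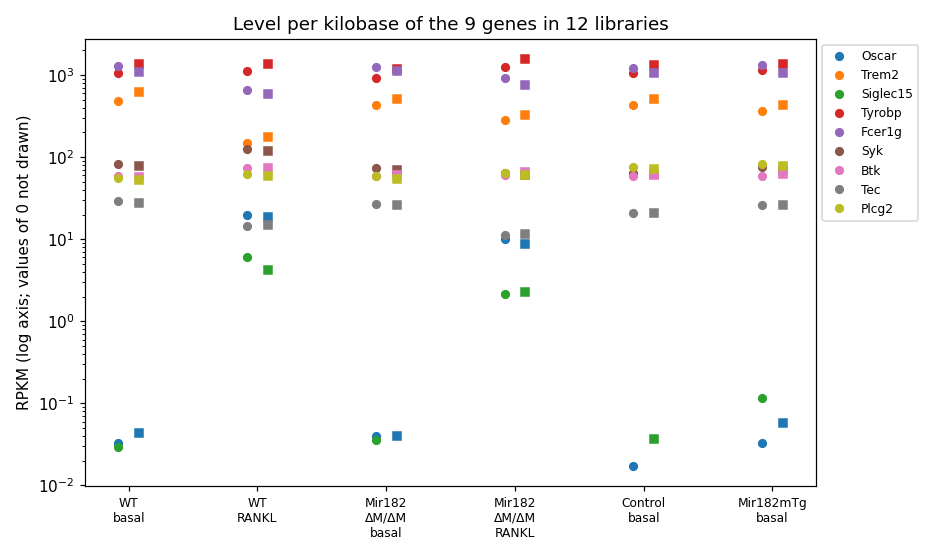
RPKM of the 9 genes in the 12 libraries on a log axis (circles, replicate 1; squares, replicate 2; values of 0 not drawn). Tyrobp and Fcer1g lie highest throughout, and Oscar and Siglec15 leave the lowest levels only in the 4 libraries with RANKL.

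The other genes of the pathway were read from fixed lists, whose counts stand against the shares over all genes tested, 40.6% higher and 22% lower with RANKL in WT and 14.3% higher and 30.9% lower between genotypes after RANKL. Of 16 other ITAM-coupled receptors tested, RANKL in WT called 5 higher and 9 lower (median log2 difference -0.66, against 0.19 over all genes), and 5 were higher and 3 lower in Mir182ΔM/ΔM than in WT after RANKL (0.07 against -0.14). Fcgr1, the high-affinity IgG receptor that signals through the Fc receptor γ chain, was at 18.5 and 19.8 CPM in WT with RANKL and at 148 and 167 CPM in Mir182ΔM/ΔM with RANKL (log2 difference 2.97, adjusted p = 1.14e-06, limma). Pira6, an activating paired immunoglobulin-like receptor of a family with near-identical members, was at 46.7 and 37.7 CPM against 8.70 and 7.95 CPM (-2.21, adjusted p = 0.000157). Clec4n, which encodes the C-type lectin Dectin-2, had a mean of 39.5 CPM against 13.3 CPM (-1.50, adjusted p = 4.47e-05). Without RANKL its mean was already 37.8 CPM in WT, 19.4 CPM in Mir182ΔM/ΔM and 17.1 CPM in Control. The means of Pira6 without RANKL were 2.02 CPM in WT, 2.67 CPM in Mir182ΔM/ΔM and 20.8 CPM in Control.

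Of 9 Src family kinases and controllers tested, RANKL in WT called 3 higher and 4 lower (all genes 40.6% and 22%), and 3 were higher and 2 lower in Mir182ΔM/ΔM than in WT after RANKL (all genes 14.3% and 30.9%). Src, the kinase osteoclasts need to form a ruffled border, rose from a mean of 1.02 CPM to 289 and 302 CPM in WT and reached 78.8 and 79.5 CPM in Mir182ΔM/ΔM (log2 difference between genotypes -1.88, adjusted p = 1.41e-05, limma). Fyn was higher in Mir182ΔM/ΔM than in WT after RANKL (0.80, adjusted p = 0.000249). Src was at 2.68 and 1.93 CPM in Control. It would not have passed the filter on low values without the libraries with RANKL, so its rise had to appear. Fgr rose 29.7-fold with RANKL in WT against WT basal, but its WT level with RANKL was 9.01-fold that of Control, at 9.71 and 10.3 CPM.

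Among 16 adaptors and exchange factors, 3 were higher and 7 lower in Mir182ΔM/ΔM than in WT after RANKL (all genes 14.3% and 30.9%; list median -0.26 against -0.14). Lat, a transmembrane adaptor, was at 13.7 and 15.0 CPM in WT with RANKL and 1.12 and 1.42 CPM in Mir182ΔM/ΔM with RANKL (-2.76, adjusted p = 4.31e-06, limma). Lcp2, which encodes the adaptor SLP-76, was at 346 and 290 CPM against 151 and 128 CPM (-1.18, adjusted p = 0.000505), and Vav3 was 1.64-fold lower. Of 10 genes of the PI3 kinase route, 0 were higher and 5 lower (list median -0.43 against -0.14), led by Pik3cb (-1.05, adjusted p = 3.04e-05), Pik3ca (-0.63, adjusted p = 0.000826) and Pik3r1 (-0.56, adjusted p = 0.0173). The mean of Pik3cb was 77.3 CPM in Control, 37.0 CPM in WT basal and 122 CPM in WT with RANKL.

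Of 19 genes of the calcium and calcineurin route, 2 were higher and 8 lower in Mir182ΔM/ΔM than in WT after RANKL (all genes 14.3% and 30.9%; list median -0.27 against -0.14). Nfatc1 was at 647 and 523 CPM in WT with RANKL, 122 and 101 CPM in Mir182ΔM/ΔM with RANKL and 104 and 91.9 CPM in WT basal (genotype difference -2.38, adjusted p = 2.39e-05, limma). Itpr3, an inositol trisphosphate receptor, was lower in Mir182ΔM/ΔM after RANKL (-0.77, adjusted p = 0.000239), whereas Itpr1, another of that family, was higher (1.20, adjusted p = 2.06e-05). The mean of Itpr3 was 202 CPM in Control, 95.7 CPM in WT basal and 107 CPM in WT with RANKL. Orai2, a calcium channel subunit, rose 5.23-fold with RANKL in WT, to 4.10-fold the level of Control, which had a mean of 26.4 CPM.

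Of 21 inhibitors of ITAM signalling, RANKL in WT called 6 higher and 11 lower (all genes 40.6% and 22%), and 5 were higher and 7 lower in Mir182ΔM/ΔM than in WT after RANKL (all genes 14.3% and 30.9%). Fcgr2b, the inhibitory IgG receptor, fell 8.30-fold with RANKL in WT, but was at 14.1 and 13.7 CPM in Control against 279 and 221 CPM in WT basal, so that its 31.0 and 29.3 CPM in WT with RANKL lay above Control. Cd33 was lower (-2.27, adjusted p = 9.1e-06, limma) and Cd300a higher (1.19, adjusted p = 0.000149) in Mir182ΔM/ΔM than in WT after RANKL, as was Cd300lf (1.14, adjusted p = 0.000734). The mean of Cd33 was 36.7 CPM in Control, 114 CPM in WT basal and 49.5 CPM in WT with RANKL. Among 13 ligands and partners, 5 were higher and 3 lower (list median 0.01 against -0.14). Apoe, a TREM2 ligand, was at 282 and 286 CPM in WT with RANKL and 1317 and 1184 CPM in Mir182ΔM/ΔM with RANKL (2.13, adjusted p = 1.98e-06), with 311 and 285 CPM in Control and 1791 and 1790 CPM in WT basal. Apoe thus showed the same division of libraries as Lyz2 and Ifi202b. Itgav, an integrin subunit of osteoclasts, was lower in Mir182ΔM/ΔM than in WT after RANKL (-0.98, adjusted p = 3.28e-05, limma). Its mean was 300 CPM in Control, 101 CPM in WT basal and 511 CPM in WT with RANKL. Clu, another TREM2 ligand, was at 8.86 and 9.82 CPM in WT with RANKL and 0.164 and 0.118 CPM in Mir182ΔM/ΔM with RANKL. Clu passed the filter on low values only through WT with RANKL. Its lower call therefore had to appear, and its levels are given as a description.

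Neutrophil markers moved with RANKL and, after RANKL, with genotype. Of 6 tested, 6 were lower with RANKL in each genotype (all genes 22% in WT and 26.4% in Mir182ΔM/ΔM). Camp and Elane passed the filter on low values only through basal libraries, so their fall had to appear. After RANKL 5 were lower in Mir182ΔM/ΔM than in WT (all genes 30.9%), and without RANKL 0 were called (all genes 3.81%). The summed level was 64.1 to 65.8 CPM in WT basal, 13.9 to 15.0 CPM in WT with RANKL, 80.6 to 81.0 CPM in Mir182ΔM/ΔM basal and 4.73 to 5.63 CPM in Mir182ΔM/ΔM with RANKL. It was 41.7 to 43.3 CPM in Control and 82.6 to 85.5 CPM in Mir182mTg, and no marker of the list was at 0 in any group. Their part in the results for genes that neutrophils also express, such as Tyrobp, Fcer1g, Syk and Btk, was not tested.

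The genes whose level was most like each member were ranked by Pearson's r of log2(CPM + 1) over the 12 libraries, among 10289 genes, as a description in which the libraries share conditions and replicate numbers. Oscar was nearest to Sucnr1, Pde4dip and Smurf1, each with r = 0.999. Siglec15 was nearest to Spns2, Fam49a and Slc38a2 (0.994, 0.994 and 0.993), and Trem2 to Leprot, Abhd12 and S1pr2 (0.990, 0.980 and 0.971). Fcer1g was nearest to Txndc17 (0.995) and Tyrobp to D8Ertd738e (0.940). Syk was nearest to Atp6v1d (0.990), a subunit of the vacuolar proton pump, Btk to Clpx (0.988), Tec to Stat4 (0.997) and Plcg2 to Snx7 (0.977). Among the members themselves, r was 0.987 between Oscar and Siglec15, -0.942 between Trem2 and Siglec15 and -0.899 between Oscar and Trem2.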

How the data were processed

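Per the labels, replicate 1 libraries were processed with TopHat and Cufflinks and replicate 2 libraries with HISAT2, HTSeq and edgeR, on mm10. The WT and Mir182ΔM/ΔM values were deposited as CPM, and the Control and Mir182mTg values as counts, which were scaled here to 1000000. RPKM columns were deposited for replicate 1, and their lengths were used for every library. In the deposited CPM 100% of values were whole reads within 0.05 reads. Limma 3.58.1 was run on log2(CPM + 1) for genes with at least 1 CPM in 2 libraries, with all 4 groups in 1 fit, and edgeR 4.0.16 on the deposited counts (DESeq2 1.42.0 as an alternative), both with Benjamini-Hochberg adjustment over all genes and a threshold of 0.05. The steps were tested on simulated data. Same-numbered libraries deviated together (r from 0.711 to 0.776 among the WT and Mir182ΔM/ΔM conditions, 0.763 between Control and Mir182mTg), so blocked values are given where they change a call. The members and lists were chosen with earlier results of these data known. Named pathway genes were up to 3 per list with the largest called difference between genotypes after RANKL and up to 2 with the largest in the WT response, and 1 gene that this rule names is not reported here.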

Additional observations from a re-analysis of the deposited data

Results flagged for a closer look

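The response to RANKL differed between Mir182ΔM/ΔM and WT in 4 of the 9 genes by the test of the difference itself (limma, log2 scale, Mir182ΔM/ΔM minus WT). This difference was -0.81 for Syk, 1.09 for Trem2, -0.99 for Oscar and -0.95 for Siglec15. For Oscar and Siglec15, near 0 without RANKL, it nearly repeats the genotype difference after RANKL, so nothing is read from the count. Syk and Trem2 passed the test also on the recovered reads with edgeR, whereas Oscar and Siglec15, with at most 2 reads in a basal WT or Mir182ΔM/ΔM library, did not. All 4 differences use the WT libraries with RANKL, which stand apart from WT basal in Lyz2 and Ifi202b, and the part of that in these values was not tested.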

How the results depend on the processing

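The 52 results for single members were recomputed under 785 alternatives, of which 700 kept the direction and the side of the threshold, 31 lost a call, 29 gained one and 25 turned the direction. In 3 of the 25 one of the values was called: Tyrobp with RANKL in WT (-0.16) and Plcg2 with RANKL in WT (-0.0783), both in edgeR with the replicate block, and Plcg2 against Control (-0.29). In 22 neither was. For RANKL in WT these were Tyrobp with TMM factors (-0.16), in edgeR (-0.17) and with 1 library left out (-0.12 to 0.22), and Plcg2 with TMM factors (-0.0771) and in edgeR (-0.0787). The others came from leaving out 1 library, with ranges of -0.0022 to 0.33 for Tyrobp between genotypes after RANKL, of -0.0078 to 0.018 for Oscar, -0.022 to 0.031 for Siglec15 and -0.11 to 0.11 for Fcer1g between genotypes without RANKL, of -0.052 to 0.055 for Plcg2 in the difference of responses, and of -0.093 to 0.26 for Tyrobp, -0.11 to 0.20 for Fcer1g and -0.014 to 0.041 for Btk in Mir182mTg. The cause was not tested. Of the alternatives, 388 left out 1 library, counted over results with and without a call in the main fit. The calls lost in this way are named beside the results. With the replicate block in limma, 3 members were called between genotypes without RANKL (also 3 in edgeR), 8 for the difference of responses (5 in edgeR), and 4 in Mir182mTg; beyond the calls named beside the results, the block changed no other call in the limma fits or in Mir182mTg. Over all genes the block gave 8555 calls between genotypes after RANKL (8435 in edgeR) against 5275, 3651 without RANKL (3695 in edgeR) against 446, 6889 for the difference of responses (5936 in edgeR) against 2875, and 1822 in Mir182mTg against 31. The comparison without RANKL gave 102 calls from its own samples alone and 97 to 293 with 1 library left out. Mir182mTg gave 124 calls with DESeq2, 141 with no filter and 55 to 166 with 1 library left out. With Control in place of WT basal, chosen after seeing the data, the difference of responses gave 5322 calls. The edgeR test on recovered reads, without the block, called 7215 genes for RANKL in WT, 6913 for RANKL in Mir182ΔM/ΔM, 4929 between genotypes after RANKL, 408 without RANKL and 2240 for the difference of responses. Depth limits Oscar and Siglec15 without RANKL, where 3 reads equal 0.0908 to 0.120 CPM.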
